A study of Arabidopsis thaliana with 22 samples.

Results

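Transcript levels of mock-treated leaves were compared between the Arabidopsis double mutant ost1-2 sal1-8 and wild type. The members are the 6 arrays of the series, of 22 in all, whose labels give the mock treatment and either the genotype ost1alx8 (3 arrays) or the genotype WT (3 arrays). The name alx8 is that of the mutant allele called sal1-8 in the study. The other 16 arrays hold ost1-2 mock (2 arrays), sal1-8 mock (3 arrays) and the ABA-treated leaves of the 4 genotypes, and they enter the comparisons only where named. Mock meant a spray with the ethanol control solution given to plants 30 days old, and ABA meant a spray with 20 µM ABA, for which the labels give 45 min in one place and 2 h in another. A sample was a single leaf from one of the biological triplicates, according to the study. Wild type was the first-generation hybrid between Col-0 and Ler and carried neither mutation. The sal1-8 line was in Col-0 and ost1-2 in Ler, and ost1-2 sal1-8 was a homozygous descendant of their cross. The mutations and the ecotype of the rest of the genome therefore cannot be told apart in any comparison between genotypes, and neither can the hybrid state of wild type.

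SAL1 is a phosphatase that degrades 3′-phosphoadenosine 5′-phosphate (PAP), a by-product of sulfur transfer reactions. PAP that is not degraded moves between chloroplast and nucleus and inhibits the XRN exoribonucleases, which digest uncapped and excised RNA from the 5′ end. OST1 is the SnRK2 protein kinase that passes the abscisic acid (ABA) signal to ion channels of guard cells and to transcription factors, so that leaves which lack it lose water through open stomata. The comparison asks what leaves that carry both mutations looked like before ABA was given. The probe sets of SAL1 and OST1 themselves carry no name in the annotation used, and the levels of both genes were not analysed here.

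Each value is a log2 intensity, so a difference of 1 is a doubling. A transcript was tested if the array annotation names it and its highest group mean was at least 3, which left 13843 probe sets. It was called where limma's moderated test gave a Benjamini-Hochberg adjusted p under 0.05 and the fold change was above 1.5. Arrays correlated with the others of their group at a mean r of 0.963 to 0.987 across transcripts. Wild type mock array 1 had the lowest r, 0.963 against 0.970 for both other wild type mock arrays, and its median over the whole array was 4.83 against at most 4.71 in the other two. Without it 2806 transcripts were called, and without any other of the 6 arrays 1807 to 2107, against 2319 with all. Rubisco activase (RCA), an abundant leaf transcript, read 11.97, 12.09 and 12.00 in wild type and 11.83, 11.97 and 12.00 in ost1-2 sal1-8. Over the tested transcripts the median level of an array was 5.40 to 5.47 in wild type mock and 5.59 to 5.61 in ost1-2 sal1-8 mock, a difference of 0.17 between the means of these medians. This offset is in the deposited values, and it sets where the division between rises and falls lies.

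In ost1-2 sal1-8 leaves, 2319 of 13843 transcripts (16.8%) differed from wild type. Of these 1480 were higher (10.7% of those tested) and 839 were lower (6.06%), so 63.8% of the calls were rises. With each array centred on its median the count was 1092 higher and 1655 lower, 39.8% rises, and the median change over all tested transcripts was -0.16 instead of 0.01. With a further quantile normalization it was 1205 higher and 1183 lower, 50.5% rises, with a median change of -0.07. Which of the directions prevailed is thus a matter of scaling, and 1931 of the 2319 calls were kept after centring and 2029 after the quantile normalization, none with a changed sign. The raised transcripts had a median level of 4.63 in wild type and 6.28 in the double mutant, and the lowered ones of 6.31 and 5.08. More than 4-fold changes were found in 256 raised and 71 lowered transcripts, and more than 16-fold changes in 38 and 13. The arrays of the groups did not overlap for 1393 of the raised and 804 of the lowered transcripts, against 34.0% of all those tested. The total ran from 1807 to 2806 when 1 of the 6 arrays was left out.

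The largest rises were of transcripts that were near the bottom of the scale in wild type and abundant in the double mutant. AT1G68526 read 2.89, 3.12 and 3.80 in the wild type arrays and 10.35, 10.37 and 10.61 in ost1-2 sal1-8. The difference was 7.17 (SE 0.36, adjusted p = 5.67e-11, limma, n = 3 and 3), which is 144-fold. Detection p-values were not used here, so that a level near 3 may be background, and folds against it are differences between measured values. AT3G04410 read 2.82, 3.19 and 3.04 in wild type and 8.32, 8.64 and 8.50 in the mutant (5.47, adjusted p = 3.26e-09). AT4G02760 was already above these levels in wild type, at 5.32, 5.49 and 5.06, and read 10.13, 10.36 and 10.38 in the mutant (5.0, adjusted p = 3.47e-12). In each of these genes the groups lay far apart and the replicates close together. The 15 largest rises ran from 4.61 to 7.17 on the log2 scale. None of the 15 has a gene symbol in the annotation, and no function is given to them here.

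**Figure D1:**
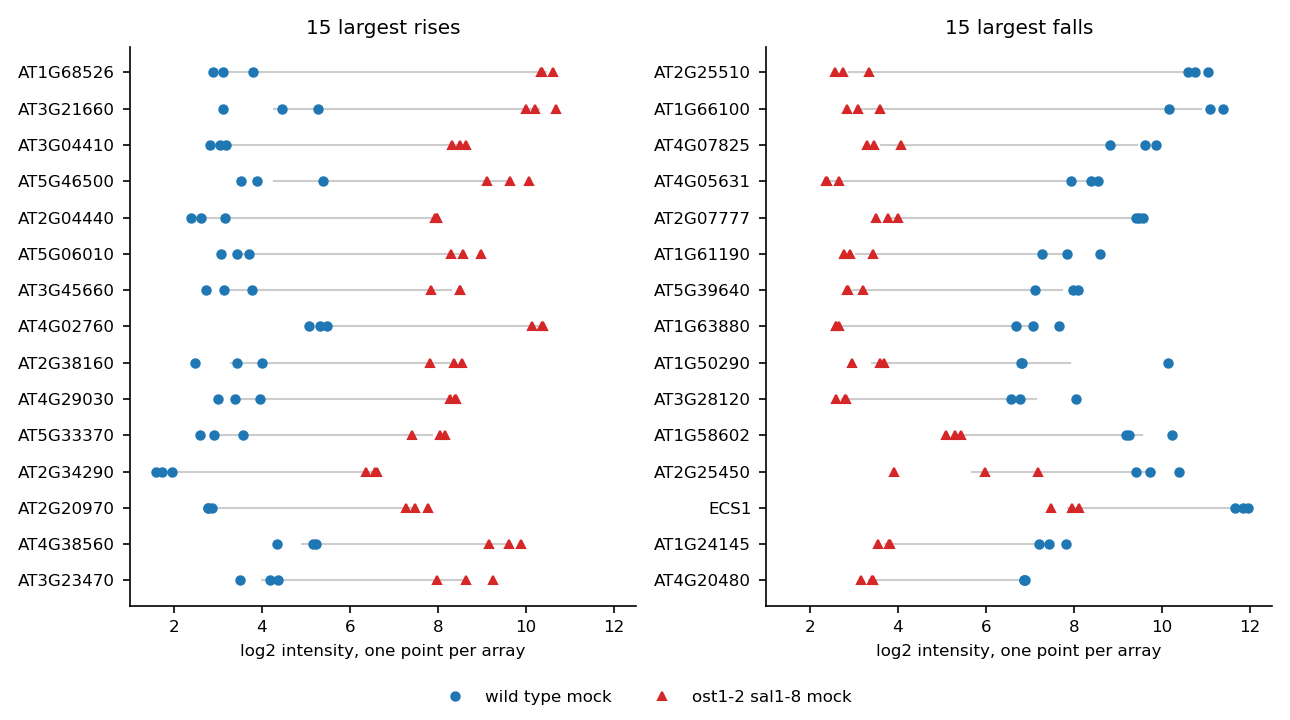
Log2 intensity of the 15 transcripts with the largest rises (left) and the 15 with the largest falls (right) in ost1-2 sal1-8 mock against wild type mock, 1 point per array (circles, wild type; triangles, ost1-2 sal1-8) with a grey line between the group means. The rises start from wild type levels of mostly 2 to 5, the falls start from 6 to 12 and end mostly below 4, and AT1G50290 has 1 wild type array far above the other two.

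These 15 rises were also large in sal1-8 and not in ost1-2. In sal1-8 mock their differences from wild type mock ran from 4.35 to 7.13, and in ost1-2 mock from -0.81 to 2.38. The 3 comparisons share the wild type mock arrays. Against sal1-8 mock itself, 1 of the 15, AT4G29030, differed in the double mutant (-1.22, adjusted p = 0.015, limma), and against ost1-2 mock all 15 did. The largest falls had another arrangement. AT2G25510 read 10.76, 10.58 and 11.04 in wild type and 2.57, 2.76 and 3.33 in ost1-2 sal1-8, a fall of 7.90 (SE 0.40, adjusted p = 6.32e-11). Its mean was 9.75 in sal1-8 and 3.72 in ost1-2. AT1G66100 read 11.08, 10.17 and 11.39 in wild type and 3.09, 2.84 and 3.60 in the double mutant, with means of 11.11 in sal1-8 and 3.86 in ost1-2. For both the double mutant lay with ost1-2 and sal1-8 with wild type. Of the 15 largest falls, 14 differed from sal1-8 mock and 3 from ost1-2 mock. AT5G39640 was the one with the opposite arrangement, at a mean of 3.07 in sal1-8 and 7.82 in ost1-2. AT1G50290 rested on a single array: it read 6.81, 6.79 and 10.14 in wild type, and without wild type array 3 the fall was 3.39 and not called (adjusted p = 0.083).

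Of the genes with a known role, SPCH stood out. It encodes the bHLH factor that starts the stomatal cell lineage. Its level was 6.67, 3.54 and 3.62 in wild type and 8.23, 9.32 and 8.69 in the double mutant. The difference was 4.14 (SE 0.59, adjusted p = 4.22e-05), or 17.6-fold, and the wild type arrays were themselves 3 log2 units apart without reaching the mutant. Wild type array 1 was the high one, and without it the difference was 5.17. In sal1-8 mock SPCH read 7.57, 7.20 and 6.99, and in ost1-2 mock 6.17 and 4.67. The factors that act after SPCH did not pass the test at mock. MUTE, which ends the divisions of the lineage, differed by 0.42 (adjusted p = 0.452) and FMA, which sets guard cell identity, by 0.03 (adjusted p = 0.945). Over 10 genes of the stomatal lineage and trichomes 4 were higher and 1 was lower. After ABA 6 of them were higher and 1 lower (17.0% and 9.76% over all transcripts). This group and the others formed by gene symbol were put together after values had been seen, and their counts are descriptions to be set beside the 10.7% and 6.06% over all transcripts. The 2 other rises that held when any array was left out were BLT, which acts in trichome branching, from 3.83 to 4.01 in wild type to 5.39 to 5.67 (1.66, adjusted p = 5.45e-05), and ATMYC1, a bHLH factor of trichomes (1.45, adjusted p = 1.93e-04). TRY, an R3 MYB repressor of trichomes and the neighbour of SPCH in gene order, read 5.34 to 5.53 in wild type and 6.42 to 7.10 in the mutant (1.31, adjusted p = 0.0188), but it was not called without mutant array 1, mutant array 3 or wild type array 2 (1.15 to 1.49 over the arrays left out).

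Of 19 regulators of organ shape 6 were higher and 1 was lower (10.7% and 6.06% over all transcripts), and the other 12 did not pass the test. The count of rises stayed at 6 whichever array was left out. The fall was lost without any array except mutant array 3. The median of the 19 was 0.14 (0.01 over all tested transcripts). TCP15, a growth-regulating TCP factor, read 5.40, 4.82 and 4.53 in wild type and 6.77, 6.02 and 6.34 in the mutant (1.46, SE 0.22, adjusted p = 7.39e-05). AN, which sets leaf width, rose by 0.93 and ULT1, a regulator of meristem size, by 0.99. JAG, a zinc finger factor that promotes growth of lateral organs, rose by 0.86. Of 13 auxin genes 3 were higher and 0 lower (the others did not pass limma's test, and the 3 held when any array was left out). These were GH3.9 and WES1, of the family that conjugates auxin to amino acids, with 2.02 and 1.61, and IAA34, of the Aux/IAA repressor family, with 1.81. WES1 was not higher after ABA (-0.57, adjusted p = 0.27), while GH3.9 and IAA34 were (3.30 and 1.81). Among genes in neither group, CLE40, a signalling peptide, rose by 2.14, and RR18, a B-type response regulator of cytokinin signalling, by 2.05.

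Of 16 subunits of nuclear RNA polymerases, 2 were higher and 0 lower by limma, a share near the 10.7% over all transcripts. Both are subunits named for the plant-specific polymerases of RNA-directed DNA methylation. NRPD7 read 3.98, 3.32 and 3.47 in wild type and 7.75, 6.93 and 7.50 in ost1-2 sal1-8 (3.80, SE 0.25, adjusted p = 2.36e-09). NRPD2B read 3.48, 3.83 and 3.53 against 7.05, 6.73 and 6.26 (3.06, adjusted p = 4.53e-07). The groups were separated by more than 2 log2 units in both genes, and the 14 other subunits lay between -0.35 and 0.26, among them NRPE7 (-0.25), also named for such a polymerase. Of 18 genes of mitosis and meiosis 8 were higher and 0 lower, with a median of 0.79 against 0.01 over all tested transcripts. ZYP1b, of the synaptonemal complex that joins meiotic chromosomes, rose by 1.94 from 3.17 to 3.47 in wild type to 5.19 to 5.40. FBL17, an F-box protein that promotes the cell cycle, rose by 0.85 and BUB3.1, of the spindle checkpoint, by 0.80. The count of 8 was set by single arrays: it was 12 without wild type array 1 and 4 without wild type array 2, wild type array 3 or mutant array 2, and 5 without mutant array 3. With centred arrays it was 6.

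**Figure D2:**
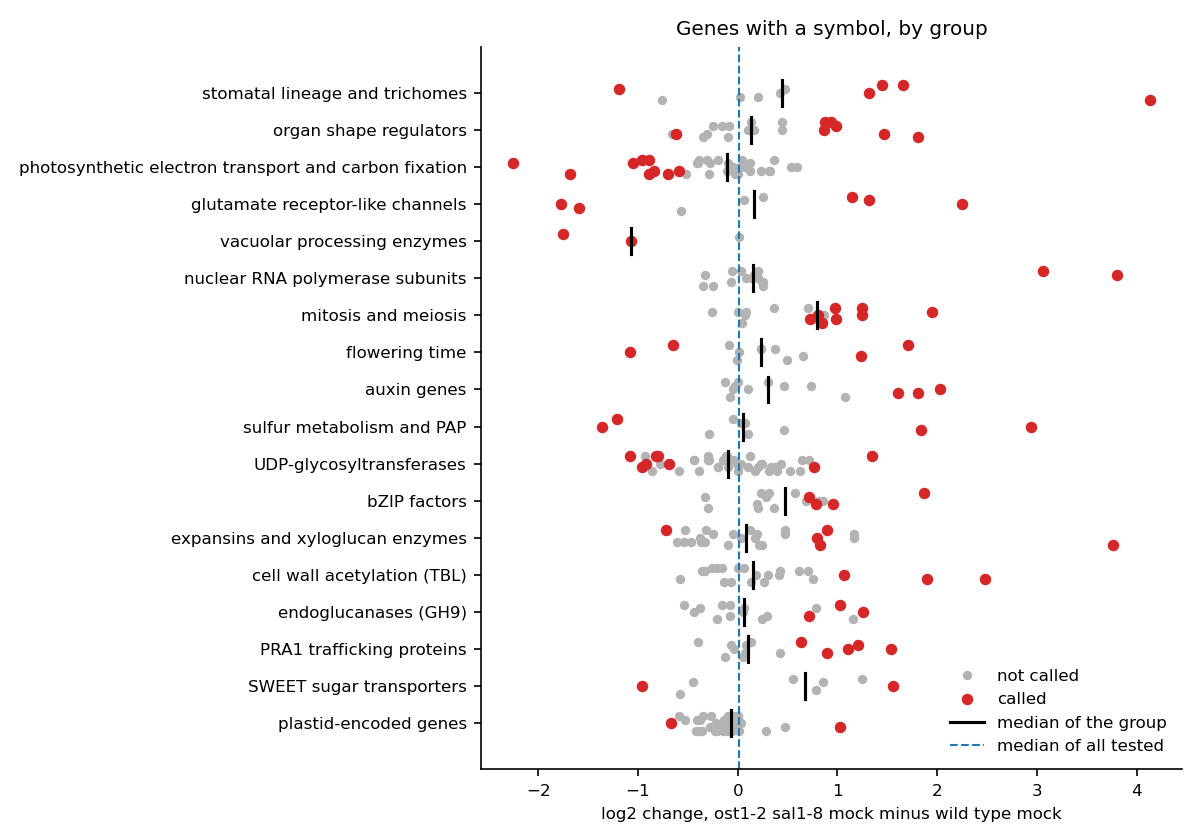
Log2 change (ost1-2 sal1-8 mock minus wild type mock) of each tested probe set of the gene groups, red where called and grey where not, with the median of each group as a black bar and the median of all tested transcripts as a dashed line. Most members of most groups lie within 1 of zero, and single members such as SPCH, NRPD7 and EXPA20 lie near 4.

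Cell wall genes contributed single members with large changes. EXPA20, an expansin, read 4.84, 5.14 and 4.89 in wild type and 8.52, 8.76 and 8.90 in the double mutant (3.77, SE 0.18, adjusted p = 4.30e-11). A second probe set of the same gene read 5.04 to 5.21 and 5.31 to 5.41 and was not called (0.21, adjusted p = 0.364), so the probe sets of EXPA20 disagree. Over 26 probe sets of expansins and xyloglucan enzymes 4 were higher and 1 was lower (10.7% and 6.06% over all transcripts). Only 1 rise was left, that of EXPA20, without wild type array 2, wild type array 3 or mutant array 3 and with centred arrays. In the TBL family, whose members add acetyl groups to wall polysaccharides, 3 of 22 were higher and 0 were lower. The share of rises is near the 10.7% over all transcripts. TBL30 rose by 2.48 from 4.59, 3.89 and 3.92 to 6.28, 6.74 and 6.81, TBL31 by 1.90 and TBL28, which lies next to TBL30, by 1.07. All 3 held when any array was left out. Among the PRA1 proteins of membrane trafficking 5 of 14 were higher and 0 lower (3 with centred arrays), led by PRA1.C with 1.53. The median of the 14 was 0.11, and after ABA 2 of them were higher (17.0% over all transcripts).

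Transporters and enzymes with symbols were among the strongest rises. PUP15, of the purine permease family, read 3.86, 4.64 and 4.00 in wild type and 7.57, 8.10 and 8.10 in the mutant (3.76, SE 0.24, adjusted p = 1.73e-09). AAE18, an acyl-activating enzyme, read 6.93, 6.71 and 5.80 against 9.79, 9.94 and 9.66 (3.32, adjusted p = 1.31e-08). PYK10, a β-glucosidase of endoplasmic reticulum bodies, read 3.39, 4.57 and 3.69 against 9.05, 6.45 and 6.24 (3.36, adjusted p = 4.04e-04). The mutant array 1 of PYK10 was at the level of sal1-8 mock (8.94 to 9.09) and the others lay more than 2 below it, and in ost1-2 the gene stayed at 3.56 and 3.66. NAXT1, a nitrate excretion transporter, rose by 2.29 and GSTU28, a glutathione transferase, by 2.23. DFR, the anthocyanin enzyme dihydroflavonol reductase, read 5.38, 4.21 and 4.65 against 8.21, 7.56 and 6.96 (2.83, adjusted p = 0.0047), and it differed from wild type in the same direction in sal1-8 (4.01) and in ost1-2 (2.70). The other 3 listed genes of flavonoid and anthocyanin synthesis named by the annotation did not pass the test, with changes of 0.20 to 0.62.

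Photosynthesis genes that were called with all arrays were lower. Of 35 nuclear genes of electron transport and carbon fixation 0 were higher and 9 were lower by limma (10.7% and 6.06% over all tested transcripts). Their median change was -0.11, against 0.01 over all tested transcripts. PRK, the phosphoribulokinase of the Calvin cycle, read 9.62, 9.80 and 9.50 in wild type and 7.31, 7.24 and 7.62 in the double mutant, a fall of 2.25 (SE 0.23, adjusted p = 6.76e-07). No array of either single mutant was as low: sal1-8 mock read 9.08, 8.80 and 9.55, and ost1-2 mock 8.35 and 8.72. PRK was lower in the double mutant than in sal1-8 by 1.75 (adjusted p = 6.3e-05, limma). LHCB4.3, an antenna protein of photosystem II, read 5.80, 5.35 and 5.22 against 3.71, 3.75 and 3.86 (-1.68, adjusted p = 2.26e-05). LPA19, an assembly factor of photosystem II, fell by 1.05, PIFI, a protein of chlororespiration, by 0.96 and TAPX, the thylakoid ascorbate peroxidase, by 0.70. NdhN, a subunit of the chloroplast NDH complex, was lower by 0.84, and not called without wild type array 2 (-0.62, adjusted p = 0.078). The count of 9 was 6 without wild type array 2 and 10 with centred arrays, and 1 gene was called higher without wild type array 1 or mutant array 1. After ABA 6 of the same 35 genes were higher and 3 were lower than in wild type, shares near the 17.0% and 9.76% over all transcripts. Whether the group differed between the treatments was not tested. Transcripts of the plastid genome changed little: of 63, 53 had a change below 0, 1 was called higher (rpl33, a ribosomal protein, 1.03, adjusted p = 0.00143) and 1 lower (rpoB, of the plastid RNA polymerase, -0.67, adjusted p = 0.0455, not called when wild type array 1 or 2 or mutant array 1 or 3 was left out, -0.80 to -0.57). In mitochondria the complex I subunit nad1 read 5.02, 5.40 and 4.90 in wild type and 2.33, 2.20 and 2.23 in the mutant (-2.85, adjusted p = 6.45e-08). It lay nearer to ost1-2 (3.43 and 2.58) than to sal1-8 (4.48 to 4.57).

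Most marker genes of ABA and dehydration that carried a name did not pass the test at mock, and those that passed were lower. Of 6 ABA and dehydration marker genes named by the annotation 0 were higher and 2 were lower (10.7% and 6.06% over all transcripts), with a median of -0.49. COR47, a dehydrin, read 8.87, 8.95 and 8.75 in wild type and 7.56, 7.37 and 8.25 in ost1-2 sal1-8 (-1.13, SE 0.23, adjusted p = 0.00185). LTI30, another dehydrin, read 2.84, 3.27 and 3.13 against 2.11, 1.85 and 1.21 (-1.36, adjusted p = 0.0021), with both groups near the bottom of the scale. The ost1-2 arrays were above wild type for both genes (9.64 and 10.11 for COR47, 5.24 and 4.91 for LTI30) and those of sal1-8 below it (7.22 to 7.80 and 1.75 to 1.98). For LTI30 the difference of the double mutant from wild type was not the sum of those of the single mutants. Ecotype and the hybrid state of wild type enter this test too and cannot be told apart from the mutations. The step from sal1-8 to the double mutant differed from the step from wild type to ost1-2 by -2.13 (adjusted p = 0.0254, limma), in a test that called 0.477% of all transcripts and lost this call without each of 8 of the 11 mock arrays used. KIN1, KIN2, COR15A and COR15B did not pass (-0.66 to 0.48). Of 11 further marker genes that only the study's list of wild type responses to ABA names, 0 were higher and 3 were lower. They were taken from a fit over the whole array, which called 1444 of 31601 transcripts lower. The study chose these 11 genes on arrays that include the wild type mock, so they are not independent evidence of a direction. ERD10, a dehydrin, fell by 1.01 and RD22, a dehydration-responsive gene, by 0.94. RD26, a NAC factor, was lower by 1.21 (adjusted p = 0.0446) and was not called without wild type array 2 or 3 or mutant array 2 or 3 (-1.73 to -0.70). After ABA, 4 of the 6 annotated genes were lower than in wild type and 0 higher (9.76% and 17.0% over all transcripts), and LTI30 then differed by -3.15.

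Few of the listed genes of cold and of the clock carried a name, and the others were not analysed here. COR27, a cold-regulated gene outside the lists, read 7.96, 8.29 and 8.06 in wild type and 7.11, 6.0 and 6.0 in the double mutant (-1.73, SE 0.40, adjusted p = 0.00444). It read 7.85 to 8.12 in sal1-8 and 8.81 and 9.07 in ost1-2, so the double mutant was below both. COR413-PM1, a cold-responsive membrane protein, fell by 1.70 (adjusted p = 1.97e-04) and ELF4, a clock protein, by 1.52 (adjusted p = 0.00745), both in the whole-array fit. GI, a clock protein that promotes flowering, read 9.36 to 9.77 against 8.78 to 9.04 (-0.65, adjusted p = 0.033) and was not called without wild type array 2 or 3 or mutant array 1 or 2 (-0.75 to -0.54). PRR9, another clock gene, read 5.30, 6.63 and 6.56 against 7.18, 6.56 and 7.42 and did not pass (0.89, adjusted p = 0.131, whole-array fit). The related floral repressors SMZ and SNZ moved in opposite directions. SMZ read 3.56, 4.02 and 4.36 against 6.29, 5.38 and 5.40 (1.71, adjusted p = 1.26e-04) and SNZ 8.35, 8.62 and 8.36 against 7.51, 7.26 and 7.32 (-1.08, adjusted p = 3.68e-04). FPA, an RNA-binding protein of flowering, rose by 1.23.

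Sulfur metabolism and PAP genes split. SAL2, a paralogue of SAL1, read 4.86, 5.26 and 5.14 in wild type and 3.57, 3.77 and 3.85 in the double mutant (-1.36, SE 0.27, adjusted p = 0.00142). It read 3.69 to 4.04 in sal1-8 and 6.0 and 5.49 in ost1-2. OASA2, of the family that makes cysteine from O-acetylserine, read 3.04, 4.92 and 3.90 against 6.98, 6.81 and 6.91 (2.95, adjusted p = 6.73e-05), with the wild type arrays spread and the mutant arrays together. STR18, a sulfurtransferase, rose by 1.83, and SUFE2, of iron-sulfur cluster assembly, fell by 1.21. The other 6 of these 10 genes did not pass the test. Among these 6 are the other genes of PAP metabolism named by the annotation, HL (0.08), a second PAP phosphatase, and TAAC (0.10), a carrier of chloroplast membranes.

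Some channels and proteases of the glutamate receptor-like and vacuolar processing families also changed. Of 8 glutamate receptor-like channels 3 were higher and 2 lower (10.7% and 6.06% over all transcripts), and all 5 held when any array was left out. ATGLR1.2 read 3.74, 3.64 and 3.58 against 5.81, 6.0 and 5.91 (2.25, adjusted p = 4.02e-06), GLR1.4 rose by 1.31 and GLR3.6 by 1.14. The neighbouring GLR2.7 and GLR2.8 fell by 1.60 and 1.77. BETA-VPE, a caspase-like vacuolar protease, read 5.18, 5.97 and 5.46 against 3.70, 3.95 and 3.70 (-1.75, adjusted p = 6.90e-04). ECS1, a cell wall protein linked to resistance against Xanthomonas, was the symbol with the largest fall, from 11.65, 11.95 and 11.85 to 8.12, 7.97 and 7.49 (-3.96, SE 0.26, adjusted p = 2.42e-09). It stayed at 11.29 to 12.05 in sal1-8 and at 10.50 and 10.67 in ost1-2. Its departure from the sum of the single mutants was -2.46 (adjusted p = 0.00385) and was called without each of the 11 mock arrays in turn. AOP3, a dioxygenase of glucosinolate side chains, showed how far the wild type hybrids could differ, with 8.09, 3.80 and 9.99 in wild type, 10.80, 9.52 and 10.09 in the double mutant, 3.17 to 3.76 in sal1-8 and 10.91 and 11.46 in ost1-2. Its difference of 2.84 (adjusted p = 0.0314) was not called without wild type array 2 or mutant array 1 or 3 (1.09 to 4.19), and the groups overlapped.

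**Figure D3:**
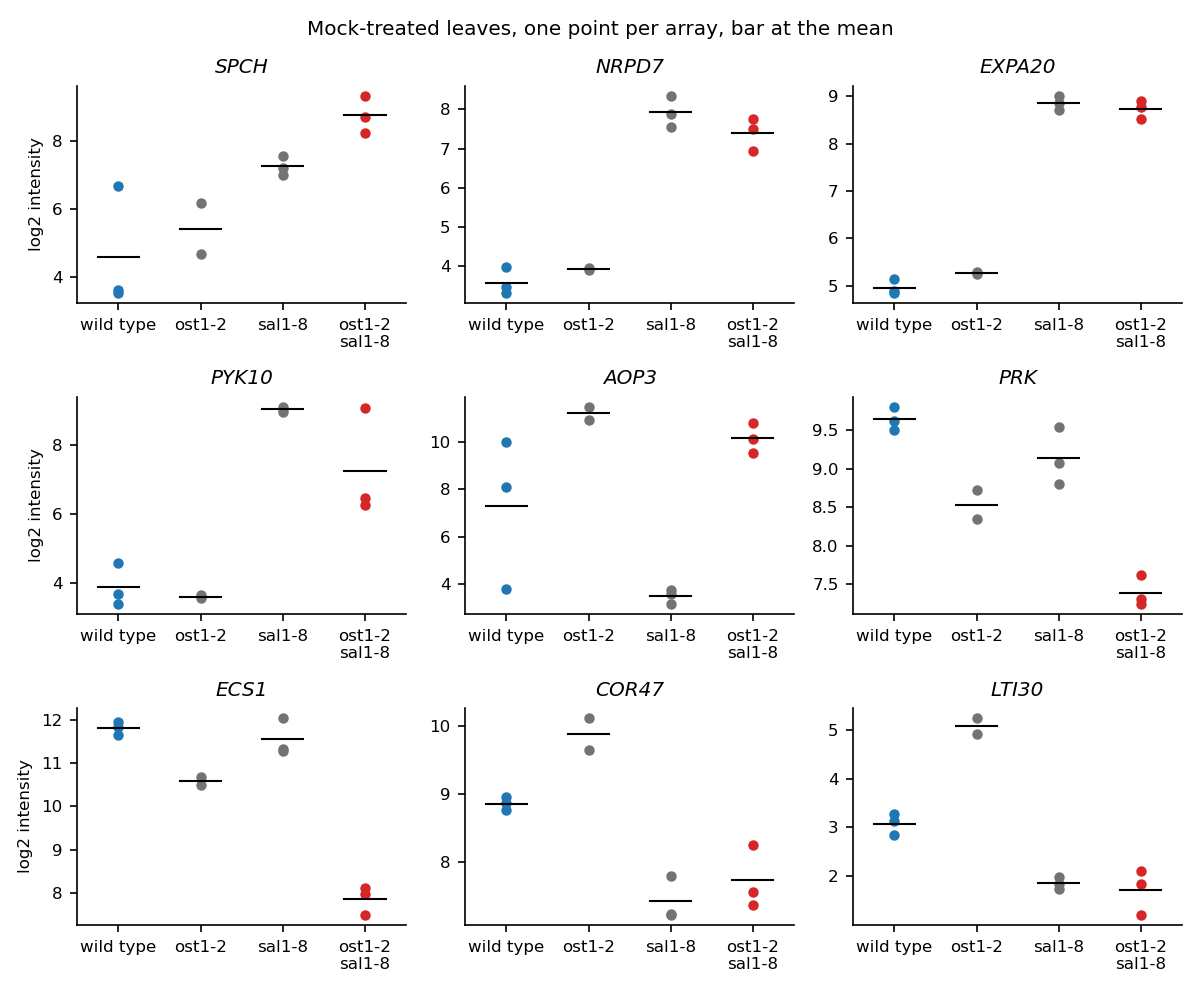
Log2 intensity of 9 genes in mock-treated leaves of the 4 genotypes, 1 point per array (3 per genotype, 2 for ost1-2), with a bar at the mean and a separate vertical scale for each gene. NRPD7, EXPA20, COR47 and LTI30 lie at the sal1-8 level in the double mutant, AOP3 near ost1-2, and PRK and ECS1 below every other array.

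Over all called transcripts the double mutant was closer to sal1-8 than to ost1-2. It differed from sal1-8 mock in 456 transcripts (3.29%) and from ost1-2 mock in 2712 (19.6%), although the latter comparison has 2 arrays on one side and fell to 1773 and 1395 without ost1-2 array 1 or 2. The 1480 raised transcripts had a median difference from wild type of 1.11 in the double mutant, 0.98 in sal1-8 and 0.03 in ost1-2. For the 839 lowered ones these medians were -0.93, -0.78 and -0.21. These comparisons share the wild type arrays, by which the transcripts were also selected, and over all tested transcripts the medians were 0.01, -0.07 and 0.02. In 66 transcripts (0.477%) the difference of the double mutant from wild type was not the sum of those of the single mutants. This count was 30 without mutant array 2 or ost1-2 array 2, 32 without mutant array 3 and 38 without sal1-8 array 3. Ecotype and the hybrid state of wild type enter this test as well. An interaction of the mutations cannot be told apart from them.

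A different way to place the double mutant uses genes that differ between its parents. In 63 genes the ost1-2 mean was lower than the sal1-8 mean by more than 1.5, with the sal1-8 mean within 0.6 of wild type. These limits were not set on the double mutant. Its arrays still entered the minimum level for testing, the model fit and the choice between probe sets of a gene. The choice of genes was therefore not independent of the double mutant arrays. The double mutant was nearer to ost1-2 in 36 of the 63. The genes were not mixed evenly over the genome. All 9 on chromosome 4, which carries OST1, were nearer to ost1-2, with a median of 0.97 on a scale from 0 at the sal1-8 mean to 1 at the ost1-2 mean. All 7 on chromosome 5, which carries SAL1, were nearer to sal1-8, with a median of -0.02. On chromosome 3, 1 of 11 was nearer to ost1-2, on chromosome 1 it was 12 of 17 and on chromosome 2 it was 14 of 19. Only 9 of the 63 lay in the middle of the scale, from 0.25 to 0.75. No test was made of this arrangement.

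**Figure D4:**
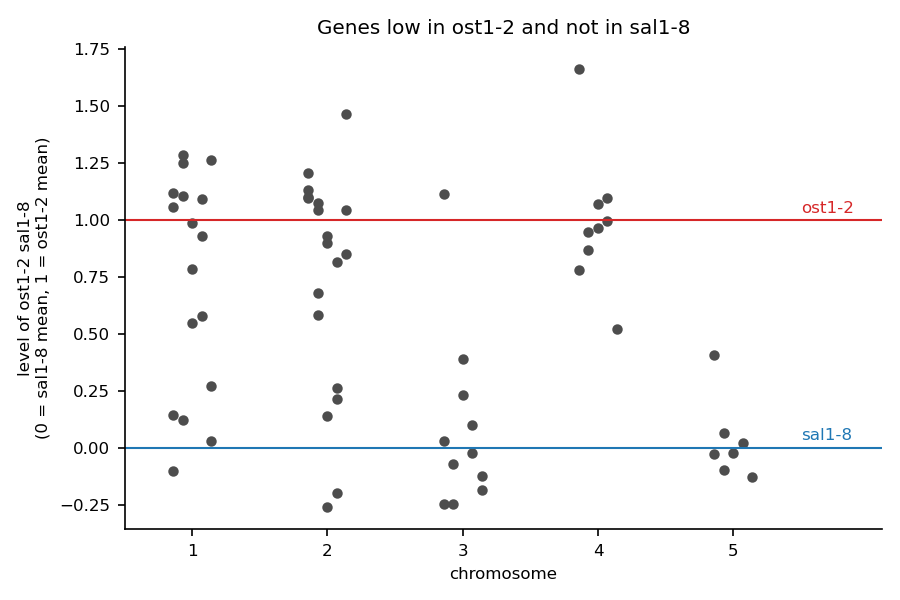
Mean level of ost1-2 sal1-8 mock for 63 genes that were low in ost1-2 and at wild type level in sal1-8, placed between the sal1-8 mean (0, blue line) and the ost1-2 mean (1, red line) and set out by chromosome. Most points of chromosome 4 lie near 1, most of chromosomes 3 and 5 lie near 0, and chromosomes 1 and 2 hold both.

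Called transcripts were found on all 5 chromosomes at similar shares, from 15.5% of the tested genes on chromosome 3 to 18.1% on chromosome 4 (16.7% over 12951 genes). By direction the shares differed more. Lowered genes ran from 4.25% on chromosome 3 to 8.72% on chromosome 4, and raised genes from 9.39% on chromosome 4 to 12.4% on chromosome 5. Within 100 loci on each side of SAL1, 17 of 100 tested genes were higher and 5 lower. None of the 100 differed between the double mutant and sal1-8 by limma, and 25 differed from ost1-2, against 3.17% and 19.8% of all genes. Around OST1 8 of 88 were higher and 9 lower, 1 differed from sal1-8 and 22 from ost1-2. Changed genes also lay beside each other. Of 1060 raised genes with a tested direct neighbour, 221 (20.8%) had a raised one, against 14.3% of all genes, and of 593 lowered genes 95 (16%) had a lowered one, against 8.21%. AT5G46490 and AT5G46500 (4.18 and 5.35), AT3G23460 and AT3G23470 (3.01 and 4.61), AT3G22450 and OASA2 (3.40 and 2.95), and NAXT1 and AT3G45660 (2.29 and 5.08) are raised pairs. AT1G66090 and AT1G66100 (-2.24 and -7.70) are a lowered one. These shares are a description and were not tested, and the strand of the genes was not used.

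Direction went with the level of a transcript. When transcripts were sorted by their mean in wild type after ABA, arrays that take no part in the mock comparison, 17.4% of the 1026 under 3 were higher in the double mutant mock and 3.12% lower. A transcript under 3 there was tested only because another group reached 3, so the filter itself favours rises in that bin. From 3 to 5 the shares were 13.4% and 3.99%, and from 5 to 7 they were 10.3% and 6.76%. Over 9 (883 transcripts) they were 4.42% and 10.6%. From 3 upward, rises were thus more frequent among dim transcripts and falls among bright ones. The shares depend on the scaling in the same way as the totals above.

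The same genotypes were compared after ABA on 6 other arrays. There 2349 transcripts were higher (17.0%) and 1351 lower (9.76%) in ost1-2 sal1-8. Of the 1480 transcripts raised at mock, 1159 (78.3%) were called higher after ABA and 2 lower, and 1455 (98.3%) had the same sign. Of the 839 lowered ones, 503 (60.0%) were called lower and 3 higher, and 781 (93.1%) had the same sign, against 75.6% of all tested transcripts. All 15 of the largest rises and all 15 of the largest falls were called again. SPCH differed by 4.89 after ABA, NRPD7 by 3.72, EXPA20 by 3.08, PRK by -1.43 and ECS1 by -5.15. In 19 transcripts (0.137%) the difference between the genotypes itself depended on the treatment, a count that ran from 6 without mutant mock array 2 to 50 without wild type ABA array 1. NAXT1 was among them, with 2.29 at mock and 4.78 after ABA (difference 2.50, adjusted p = 0.00436), a call that held without each of the 12 arrays in turn.

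**Figure D5:**
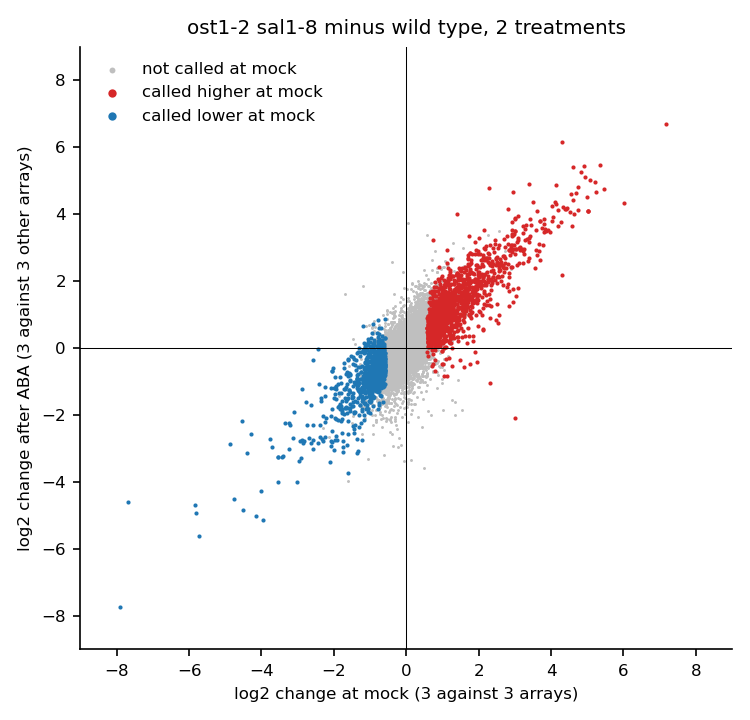
Log2 change between ost1-2 sal1-8 and wild type at mock (horizontal) and after ABA (vertical) for 13843 transcripts, with those called higher at mock in red, lower in blue and the rest in grey. The 2 comparisons share no array, and most called transcripts lie in the quadrants of equal sign.

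Markers of other cell types were few among the named transcripts. Of 2 guard cell genes 0 passed the test by limma at mock (FMA, 0.03, and AT1G22690, 0.72 with adjusted p = 0.0825). After ABA these 2 were higher than in wild type, with a median of 0.94 (17.0% of all transcripts were higher then). At mock SWEET11, a sugar exporter of the phloem, differed by -0.58 (adjusted p = 0.106) and EXPA7, a root hair expansin, by -0.32 (adjusted p = 0.223), with EXPA7 at 2.86 to 3.66 in all 6 arrays. The trichome gene TRY is given above. In whole leaves fewer cells of a type and less RNA per cell cannot be told apart, and the part that cell types had in the differences was not tested. Of the listed kinases and sensors of calcium signalling 4 were measured, and 2 of them passed the test. Over all tested transcripts 16.8% were called, and 4216 of 31601 in the whole-array fit. CRK2 (AT3G19100) was higher by 1.07 (adjusted p = 0.0225), and not called without wild type array 2 or 3 or mutant array 1 (0.71 to 1.51), and CIPK6, listed as SIP3, was higher by 0.83 in the whole-array fit (adjusted p = 0.0271), and not called without wild type array 1 or 2 or mutant array 1 or 3 (0.60 to 1.03). AT1G49580 (CRK8) differed by 0.69 (adjusted p = 0.0736) and CPK27 by -0.37 (adjusted p = 0.396, whole-array fit), and neither passed.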

How the data were processed

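The authors deposited log2 intensities, 1 per probe set of an Affymetrix array for Arabidopsis genes, after background correction, quantile normalization between arrays and a median polish over probes, made in R 3.1.0 with oligo 1.28.0 (limma 3.20.1, Affymetrix Power Tools and Partek are also named in the submitters' processing notes). For its gene-set tests the study kept probes that match 1 gene of TAIR10, and the build behind the probe set summary itself is not given in the sources used here. All 22 columns were used and 0 belonged to other samples. Of 38408 probe sets the annotation gives a gene for 17481 (1 gene for 16722, more for 759), and 20927 are not in it. Symbols and gene order came from the RefSeq table of TAIR10.1. A linear model of the 8 group means over the 22 arrays was fitted with limma 3.58.1 in R 4.3.3, with empirical Bayes and Benjamini-Hochberg adjustment within a comparison. Tested were 13843 named probe sets, 13204 of them for 1 gene. Genes that only the study's table names were taken from a fit over all probe sets with a highest group mean of at least 3. The labels do not say that replicates came from separate cultures or days, so p-values measure the spread between these leaves, and precision is limited by how few arrays there are.

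Named genes were the 15 largest rises and 15 largest falls among called transcripts of a single gene with arrays that do not overlap, genes the study names, and members of 22 lists (345 genes). The comparison and the lists were chosen with earlier results of these data known, and the 19 groups by symbol, as well as the other genes with symbols, were chosen after their values were seen. Lists are described by counts and medians without a test. Alternatives were 13 other settings and leaving out each array. The scripts were tested on simulated data.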

Additional observations from a re-analysis of the deposited data

Results flagged for a closer look

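The difference between ost1-2 sal1-8 and wild type was larger or smaller after ABA than at mock in 7 of the transcripts raised and 4 of those lowered at mock, by limma's test of the difference between treatments with Benjamini-Hochberg adjustment. The 10 of them that stand for 1 gene are given here, and the other matches more than 1 gene. AT5G15980 differed by 0.75 at mock and 3.23 after ABA, a change of 2.49 (adjusted p = 0.00436), and NAXT1 changed by 2.5 (adjusted p = 0.00436). Both calls held without each of the 12 arrays in turn. AT3G13672 went from 2.32 to -1.05, a change of -3.37 (adjusted p = 0.016), and was not called without ost1-2 sal1-8 mock array 2 or 3 (at most 0.0539). AT5G25600 changed by 1.84 (adjusted p = 0.016; 2 of 12 arrays ended the call), AT5G23480 by 1.62 (adjusted p = 0.016; 3 of 12) and AT5G55180 by -2.11 (adjusted p = 0.019; 3 of 12), with ost1-2 sal1-8 mock array 2 among those arrays for all 3. AT1G49010 changed by 1.46 (adjusted p = 0.0303; 8 of 12), AT1G76170 by 1.71 (adjusted p = 0.0386; 10 of 12), AT5G45950 by -1.86 (adjusted p = 0.0457; 10 of 12) and AT3G26490 by 1.19 (adjusted p = 0.0495; 11 of 12).

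In 3 named genes the step from sal1-8 to ost1-2 sal1-8 differed from the step from wild type to ost1-2 at mock. For ECS1 this difference was -2.46 (adjusted p = 0.00385), and no array left out ended the call. For LTI30 it was -2.13 (adjusted p = 0.0254; -2.33 to -1.88 without 1 array) and for ZW9 -4.11 (adjusted p = 0.0254; -4.43 to -3.86), and for both the call ended without each of 8 of the 11 arrays, ost1-2 sal1-8 mock arrays 2 and 3, sal1-8 mock arrays 1, 2 and 3 and both ost1-2 mock arrays among them.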

How the results depend on the processing

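Of 293 called genes tested over 5449 values under the alternatives, 0 changed sign, 168 were called under all and 125 lost the call under at least 1 (115 of them when an array was left out). Over the whole array with the same minimum level, 4216 transcripts were called at mock (2772 higher and 1444 lower) and 7242 after ABA, with 864 against sal1-8 and 4980 against ost1-2, since more probe sets were tested. Centring raised the falls at mock to 1655. Array weights gave 931 calls against sal1-8, 155 non-additive transcripts and 33 whose genotype difference depended on treatment, which were 9 with only the groups compared; the cause was not tested. Leaving out 1 array gave 1807 to 2806 calls at mock (1185 to 1759 higher, 620 to 1047 lower), 316 to 381 against sal1-8, 1395 to 2574 against ost1-2, 2916 to 3822 after ABA, 30 to 78 non-additive and 6 to 50 that depended on treatment (12 without ost1-2 sal1-8 ABA array 2, 38 without wild type ABA array 2, 11 without ost1-2 sal1-8 mock array 3). The counts of the last 2 tests under these alternatives were added after seeing the data. Arrays of the same run of sample numbers deviated together at r = -0.10, -0.06 and 0.05, so the numbers do not pair the samples, and with the run as a replicate block the counts were 2325 at mock (1463 higher and 862 lower), 451, 2374, 3388, 55 and 14.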
